A study of Mus musculus with 14 samples.

Results

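The response of control microglia to bacterial endotoxin was followed in 7 of the 14 libraries of the series: 4 from mice given lipopolysaccharide (LPS) and 3 from mice given PBS, the saline vehicle. The series examines Rheb, a GTPase of the Ras family that switches on mTORC1, a kinase complex of cell growth, in microglia. All 7 libraries carry the genotype Rheb F/F, floxed Rheb alleles with no Cre recombinase, and are called WT here. The other 7 libraries (3 PBS, 4 LPS) carry Rheb F/F; Tmem119-cre ER, a tamoxifen-inducible Cre expressed from a microglial gene, and are called KO. Every mouse was 8 weeks old, had received tamoxifen, and was injected intraperitoneally each day for 4 days with PBS or with LPS at 1.0 mg/kg, after which brain cells were purified with magnetic beads. The libraries were chosen by these labels, and the genes were the 18105 autosomal genes, of 41739 in the table, with at least 1 TPM in at least 3 of the 14 libraries. TPM is a length-corrected share of a library, scaled to the same total in each. Levels below are TPM divided by a size factor per library (the median of ratios to the geometric mean), called scaled TPM, and are listed in the order PBS WT904, WT913, WT914 and LPS 1, 2, 3, 4. Fold changes are differences of mean log2(scaled TPM + 1), which are smaller than ratios of TPM where levels are low. A gene rose or fell where limma's adjusted p was under 0.05.

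LPS, a component of the outer membrane of Gram-negative bacteria, is bound by CD14 and by MD-2, the product of Ly96, and signals through Toll-like receptor 4 (TLR4). Through the adaptor MyD88 the receptor activates NF-kB and the transcription of cytokines, and through the adaptor TRIF it leads to interferon-beta and, by the factors that its receptor activates, to interferon-stimulated genes. Negative regulators induced by the same signal limit it, and repeated doses leave macrophages and microglia in an altered, partly refractory state. After injection into the periphery, LPS also acts on the endothelium and on circulating cells, and mediators from these reach microglia.

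The PBS libraries held 15685782 to 18064658 reads and the LPS libraries 19289742 to 32304000 reads, as recovered from the TPM values. Several measures parted the treatments in every library. Size factors were 1.07 to 1.17 under PBS and 0.839 to 0.940 under LPS. Xist, the transcript of the inactive X chromosome of females, stood at 0.147 TPM or less under PBS and at 255 to 329 TPM under LPS, and Y-linked Ddx3y at 111 to 122 TPM under PBS and at 0.270 TPM or less under LPS. The PBS libraries thus carried male transcripts, against the labels, which describe female mice. The short RNA Gm23935 held 0.0566% to 0.243% of the deposited TPM under PBS and 4.04% to 15.4% under LPS. Treatment, sex and library composition therefore cannot be told apart in any value below. Library PBS WT914 held 78130 TPM of Gh, growth hormone, against 0.827 TPM or less in the other PBS libraries. Library LPS 3 had the highest levels of several inflammatory genes, Saa3, Tnf, Il1b and Cxcl10 among them. Separate animals per library are not stated in the labels, and p-values then measure only the spread between these libraries, which may be technical.

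**Figure D1:**
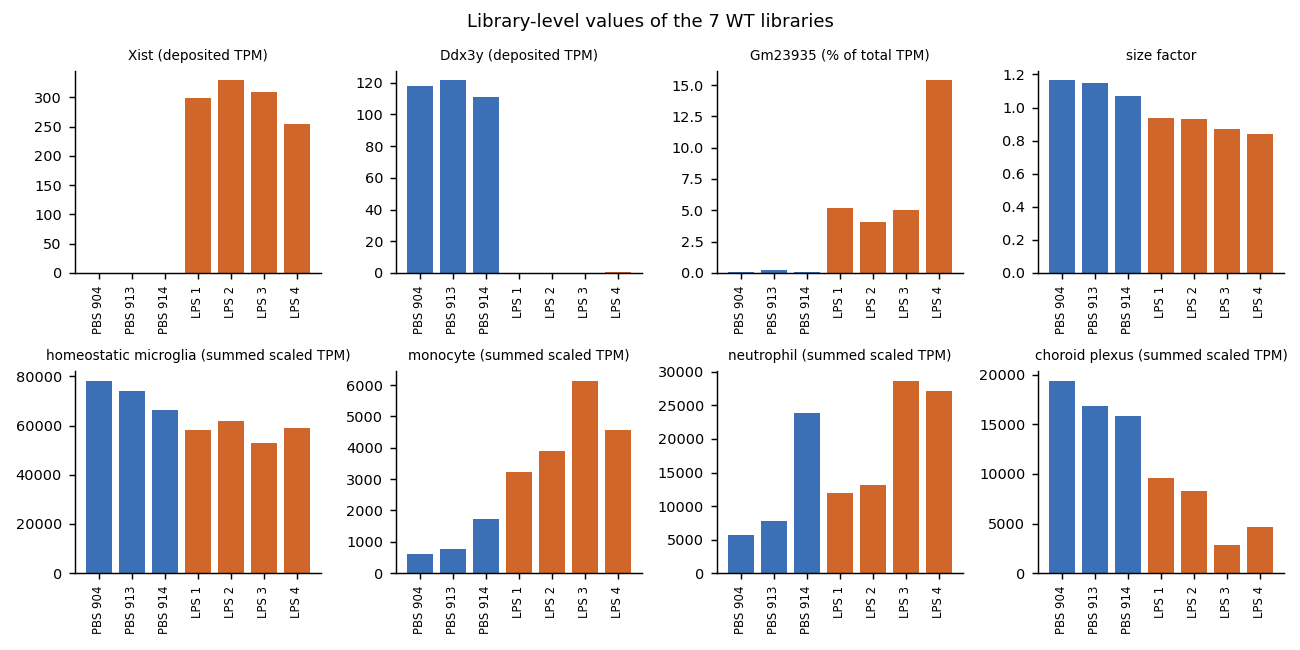
Library-level values of the 7 WT libraries (blue PBS, orange LPS): Xist and Ddx3y in deposited TPM, the share of Gm23935 in percent, the size factor, and summed scaled TPM of marker lists; each bar is 1 library. Xist stands at 255 to 329 TPM in the LPS libraries alone, Ddx3y at 111 to 122 TPM in the PBS libraries alone, and the choroid plexus sum at 2798 to 9598 under LPS against 15820 to 19390 under PBS.

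Markers of microglia were high in all 7 libraries. The 52 homeostatic microglial genes in the table summed to 66500 to 78310 scaled TPM under PBS and to 52900 to 61790 under LPS, without overlap (exact two-sided permutation p = 0.0571, the smallest that 4 against 3 libraries allow). Csf1r, the receptor that microglia need to survive, stood at 4375, 4284 and 3596 scaled TPM under PBS and at 4156, 4226, 3897 and 4305 under LPS. Its level did not part the groups. In bulk RNA of this kind, fewer cells of a type and less RNA per cell cannot be told apart.

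After 4 days of LPS, 2898 of the 18105 genes were higher (16.0%) and 2394 lower (13.2%), or 29.2% in either direction. The rises were larger than the falls: 325 rises and 36 falls reached 4-fold, and 115 rises and 6 falls reached 8-fold. At 2-fold or more, 1049 genes were higher (5.79%) and 5.05% of genes lower. The levels of 3563 genes (19.7%) lay higher in all 4 LPS libraries than in all 3 PBS libraries, and those of 3392 (18.7%) lay lower. Counts in each direction depend on the scaling. On TPM as deposited, which moves the median of all genes by -0.28, the counts were 1439 higher and 6157 lower, and with size factors from genes of 50 TPM or more (median -0.14) they were 2009 and 4113. Quantile normalisation gave 2349 and 3256. Shares of higher calls were 54.8%, 18.9%, 32.8% and 41.9% in this order. Small changes are therefore read against the median of all genes, and a change of sign under any of these scalings is stated beside the gene or list.

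The largest rise was that of Saa3, an acute-phase serum amyloid made by macrophages. Its level was 0.797, 0.476 and 0.409 scaled TPM in the PBS libraries and 2009, 1595, 4718 and 1538 in the LPS libraries, a log2 fold change of 10.47 ± 0.41 (SE). Marco, a scavenger receptor for bacteria, followed, from 1.08, 0.107 and 0.277 to 662, 263, 449 and 504 scaled TPM (8.28 ± 0.29). Both stood near 0 in every PBS library and high in every LPS library. Acod1, which makes the antibacterial metabolite itaconate, stood at 0.720, 0.552 and 4.74 scaled TPM under PBS and at 160, 93.9, 862 and 185 under LPS (6.49). Cd5l, a secreted macrophage scavenger protein, went from 1.95 or less to 239, 100, 68.1 and 128 scaled TPM (6.18). Il1b, the pyrogenic cytokine, went from 17.5, 12.8 and 31.8 to 454, 418, 1580 and 690 scaled TPM (5.05 ± 0.43). LPS 3 was highest for Saa3, Acod1 and Il1b but lowest for Cd5l.

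The other genes among the 12 largest rises had several roles. Hcar2, a receptor for hydroxybutyrate and niacin, rose from 2.94, 4.39 and 5.61 to 283, 265, 324 and 255 scaled TPM (5.76 ± 0.18). Ch25h, which makes the immune oxysterol 25-hydroxycholesterol, rose from 3.54, 2.54 and 4.22 to 162, 104, 352 and 114 (5.21). Cxcl10, an interferon-induced chemokine for T cells, rose from 2.26, 6.80 and 6.31 to 175, 74.1, 893 and 117 (5.08 ± 0.70). Cxcl10 had the widest spread under LPS of these 3 and Hcar2 the narrowest. Cxcl13, a chemokine for B cells, rose by 5.84 and Serpina3f, a protease inhibitor with near-identical neighbours that may share its reads, by 5.0. The last pair belongs to endothelium: Ackr1, a chemokine-binding receptor of venules, rose from 2.15 or less to 238, 229, 93.1 and 212 scaled TPM (6.15), and Sele, E-selectin, from 1.04 or less to 48.6, 24.8, 33.3 and 81.2 (4.82). Of 19 tested general endothelial markers 1, Vwf, rose (1.43) and none fell, and the median of 0.14 was -0.18 on TPM as deposited, -0.02 after quantile normalisation and -0.03 with size factors from genes of 50 TPM or more. All 12 rises kept their call under all 25 other settings.

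**Figure D2:**
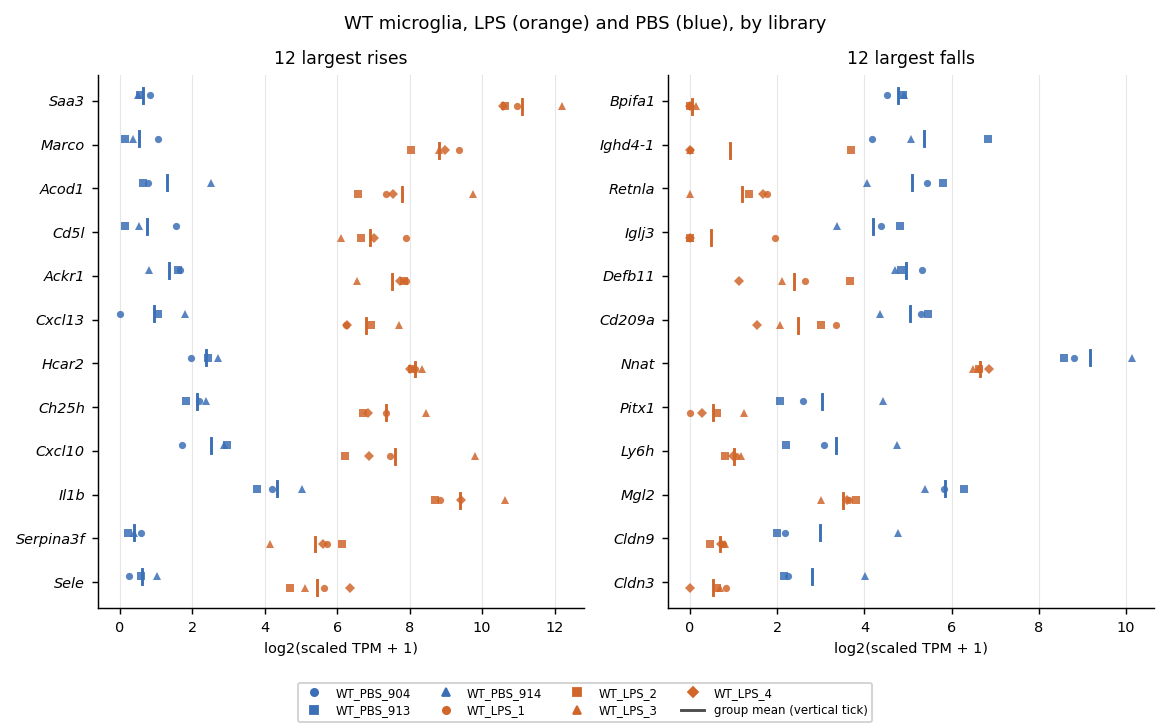
The 12 largest rises and the 12 largest falls, as log2(scaled TPM + 1) in each of the 3 PBS (blue) and 4 LPS (orange) libraries; vertical ticks are group means on this scale. Groups do not overlap for any gene shown, which the choice of genes required, and PBS WT914 (blue triangle) stands highest of its group for Nnat, Pitx1, Ly6h, Cldn9 and Cldn3.

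The largest falls were smaller, and none of the 12 is a homeostatic gene of microglia. Retnla, a secreted marker of alternatively activated macrophages, fell from 42.6, 54.6 and 15.7 to 2.37, 1.54, 0 and 2.17 scaled TPM (-3.91 ± 0.48), and Mgl2, a lectin of alternatively activated macrophages and dendritic cells, from 55.5, 77.5 and 41.0 to 11.53, 13.03, 7.002 and 11.09 (-2.32 ± 0.29). Cd209a, a dendritic cell lectin, fell from 38.2, 43.1 and 19.4 to 9.11, 7.08, 3.15 and 1.88 (-2.55). The immunoglobulin segments Ighd4-1 and Iglj3 are also among the falls, but they are so short that 9 and 11 reads, summed over the PBS libraries, make up their levels. Bpifa1, a secreted protein of airway epithelium, was at 22, 28.6 and 29.2 scaled TPM under PBS, with 1 read in all 4 LPS libraries, and lost its call under 11 of the other settings. Nnat, Pitx1, Ly6h, Cldn9 and Cldn3 were highest in PBS WT914, the library with pituitary transcripts: Nnat, for example, stood at 445, 381 and 1131 scaled TPM under PBS and at 97.4, 98.1, 89.4 and 115 under LPS (-2.52). The part of pituitary RNA in these 5 falls was not tested. Pitx1 was called under 16, Cldn9 under 17 and Ly6h under 23 of the 25 other settings, and Cldn3 under 21 of 24. The last fall, Defb11, a defensin, was -2.57.

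Among the 20 tested genes of the TLR4 receptor complex and its adaptors, 8 rose and 1 fell, with a median of 0.23 that turned to -0.10 on TPM as deposited. Tlr4 itself stood at 75.3, 82.5 and 73.7 scaled TPM under PBS and at 66.0, 69.1, 74.8 and 61.8 under LPS (log2 fold change -0.18, adjusted p = 0.427, called at -0.51 on TPM as deposited). Its partner Ly96 was at 45.9, 49.8 and 53.2 and at 56.4, 59.2, 64.5 and 57.7 (0.26, adjusted p = 0.0573, called with library weights, and -0.07 on TPM as deposited). The co-receptor Cd14 rose from 552, 627 and 486 to 1202, 1123, 2365 and 1576 scaled TPM (1.44 ± 0.26). Receptor levels thus overlapped for Tlr4, while Cd14 was higher in every LPS library. Tlr2, the receptor for bacterial lipoproteins, rose from 83.5, 86.1 and 95.2 to 394, 406, 928 and 486 (2.54), with its partner Tlr1 (1.58) and the shared adaptor Myd88 (1.33). Tlr5, the flagellin receptor, fell from 24.6, 25.5 and 21.8 to 14.6, 14.2, 11.2 and 11.3 (-0.86).

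**Figure D3:**
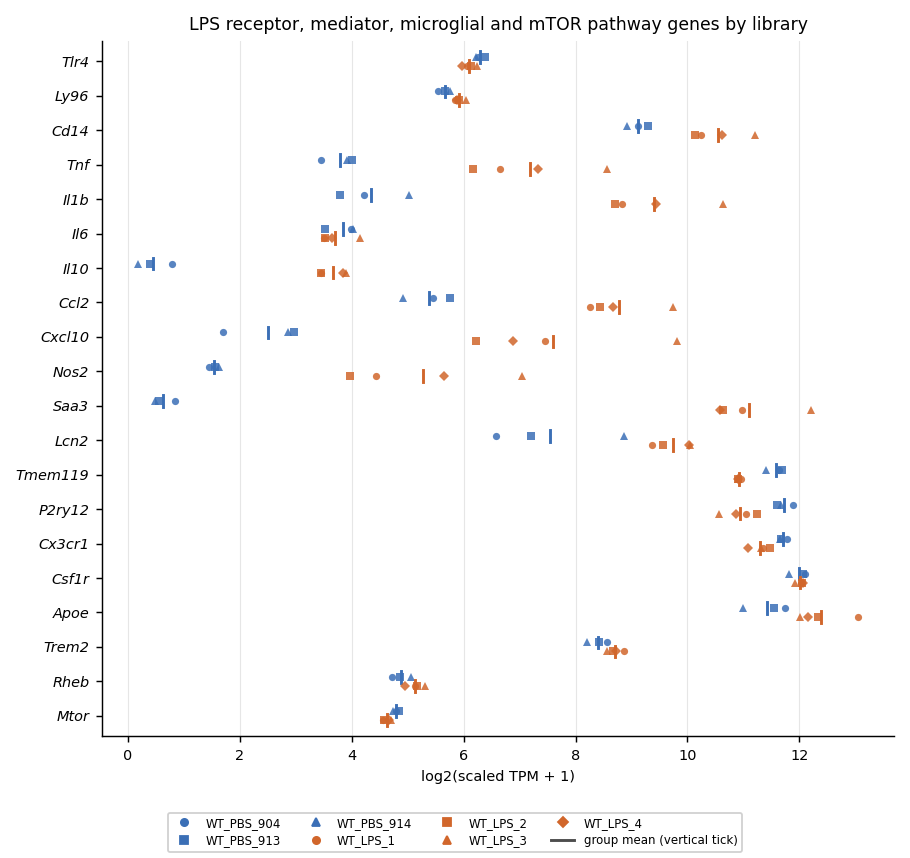
Levels of 20 genes chosen by name, as log2(scaled TPM + 1) in each of the 3 PBS (blue) and 4 LPS (orange) libraries; vertical ticks are group means. The mediators other than Il6 and the acute-phase genes stand higher in every LPS library, Tlr4, Il6 and Csf1r overlap between the groups, and Tmem119 and P2ry12 stand lower in every LPS library.

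The NF-kB list, which holds the subunits of the transcription factor with its kinases and inhibitors, had 15 of 19 tested members higher and none lower (median 0.91). Largest were Ikbke, a kinase that also activates interferon regulatory factors, from 2.85, 1.38 and 3.82 to 40.2, 62.4, 120 and 84.0 scaled TPM (4.35 ± 0.34), and Bcl3, a nuclear inhibitor family member that tunes NF-kB targets, from 1.98, 2.67 and 6.24 to 70.1, 65.6, 79.5 and 107 (4.22 ± 0.26). Relb, a subunit of the non-canonical arm, rose by 2.81 and Map3k8, a kinase that links TLR4 to ERK, by 2.67. Nfkbia, the inhibitor that NF-kB induces against itself, stood at 539.9, 910.7 and 578 under PBS and at 1226, 1223, 1742 and 1366 under LPS (1.06 ± 0.27). All 19 tested members had a positive difference. In 14 of them every LPS library lay above every PBS library, against 19.7% of all genes tested.

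Negative regulators of the response rose with it: 19 of 28 were higher and none lower, with a median of 1.72. Il1rn, the decoy ligand of the IL-1 receptor, rose from 1.88, 2.09 and 4.59 to 26.5, 34.4, 158 and 51.6 scaled TPM (3.86), and Il1r2, the decoy receptor, from 6.93, 15.1 and 17.8 to 133, 103, 346 and 215 (3.75). Il10, the anti-inflammatory cytokine, went from 0.721, 0.316 and 0.136 to 10.01, 9.96, 13.96 and 13.3 (3.21 ± 0.31). Il10 was even across the LPS libraries, whereas Il1rn varied with LPS 3 on top. Socs3, a feedback inhibitor of cytokine receptors, rose from 136, 286 and 212 to 1793, 1585, 1814 and 2076 (3.15 ± 0.23), and Dusp2, a MAP kinase phosphatase, by 3.24.

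Of 25 cytokine genes tested, 15 rose and 2 fell (median 1.33). Tnf rose from 9.91, 15.02 and 14.2 to 100, 70.6, 378 and 160 scaled TPM (3.39 ± 0.56). Il12b, the shared subunit of IL-12 and IL-23, had 3 reads in all under PBS and stood at 17.3, 5.63, 161 and 17.5 scaled TPM under LPS. Its rise (4.49) was not called with voom, a limma fit of the recovered reads (adjusted p = 0.121). Il6 did not follow: it stood at 14.9, 10.6 and 15.4 under PBS and at 10.3, 10.5, 16.8 and 11.6 under LPS (-0.15 ± 0.17, adjusted p = 0.547, called at -0.45 on TPM as deposited), with overlapping groups. Tnfsf8, the ligand of CD30, rose by 3.38. The members that fell were Tgfb2, a ligand of the TGF-beta family (-0.91), and Il16, a chemoattractant cytokine (-0.51). They were called under 19 and 22 of the 25 other settings.

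Chemokines split in a similar way, with 13 of 25 higher, 2 lower and a median of 1.27. Ccl12, a ligand of CCR2 in mice, rose from 150, 137 and 86.0 to 1383, 2401, 3729 and 2591 scaled TPM (4.29 ± 0.33). Ccl2, the main monocyte attractant, rose from 42.6, 53.3 and 29.3 to 305, 344, 860 and 405 (3.40 ± 0.37), and Ccl5, an attractant of T cells and monocytes, from 9.05, 11.4 and 8.88 to 135, 113, 400 and 87.5 (3.84). Ccl3 and Ccl4, attractants made by activated macrophages, rose by 2.62 and 3.15. The 2 falls, Ccl17 (8.45, 7.24 and 17.3 to 1.27, 6.92, 2.65 and 2.17, log2 fold change -1.57) and Ccl24 (-0.95), are chemokines of alternative activation. Ccl17 was called under 22 and Ccl24 under 17 of the 25 other settings. Among 31 receptors for cytokines and chemokines, 20 rose and 2 fell (median 0.76). Il4ra, the receptor chain for IL-4 and IL-13, rose from 91.8, 86.1 and 75.4 to 444, 467, 510 and 662 (2.60 ± 0.16), and Csf2rb, the shared chain for GM-CSF, by 2.15. The falls were Tgfbr1, a TGF-beta receptor (1234, 1180 and 1016 to 688, 804, 549 and 643, -0.78), and Il6ra, the IL-6 receptor (-0.44).

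The acute-phase, scavenger and antimicrobial list had the highest median of the programme lists, 2.56, with 33 of 41 tested members higher and 1, Retnla, lower. Its members besides Saa3, Marco and Acod1 include Treml4, a receptor of myeloid cells (4.74), and Steap4, a metalloreductase (4.28, from 3.11, 3.48 and 7.99 to 59.99, 78.1, 213 and 124). Nos2, the inducible nitric oxide synthase, rose from 1.74, 1.96 and 2.08 to 20.7, 14.6, 131 and 49.5 scaled TPM (3.73 ± 0.61). Lcn2, lipocalin 2, which binds bacterial siderophores, rose from 95.1, 146 and 463 to 662, 752, 1051 and 1044 (2.20 ± 0.44). Lcn2 was highest of the PBS libraries in PBS WT914, which also held the most neutrophil transcripts, and Lcn2 belongs to the neutrophil list as well.

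Nearly the whole interferon list was higher. Of 65 tested members, 62 rose and none fell, the other 3 having positive differences too, and the median was 1.67. Ifit1, which binds viral RNA, went from 9.10, 10.8 and 6.75 to 77.4, 50.2, 311 and 43.6 scaled TPM (3.15 ± 0.59). Ifitm1, a membrane protein that blocks virus entry, rose from 21.1, 32.9 and 45.0 to 224, 192, 723 and 439 (3.40). Gbp5, a guanylate-binding GTPase that acts against intracellular bacteria, rose from 15.3, 19.9 and 12.6 to 145, 183, 167 and 117 (3.19 ± 0.20). LPS 3 was the highest library for Ifit1 and Ifitm1 but not for Gbp5. Oasl1 rose by 3.15, and Ifi204, a DNA sensor of a family with similar copies, also by 3.15. With voom on the recovered reads Oasl1 was not called (adjusted p = 0.0620).

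Antigen presentation parted by class. Of 20 genes of MHC class I and the immunoproteasome, 19 rose and none fell (median 0.72, with 10 higher on TPM as deposited). H2-Q4, a class I heavy chain, rose from 34.6, 52.6 and 48.1 to 157, 169, 179 and 131 scaled TPM (1.81 ± 0.18), and Nlrc5, the transactivator of class I genes, from 8.00, 7.94 and 7.59 to 19.1, 26.9, 61.2 and 20.3 (1.73). The near-identical H2-Q6 and H2-Q7 rose by 1.74 and 2.08, though reads may be shared between them. Class II moved the other way in its presenting chains. Of 14 tested genes 3 rose and 5 fell, and the median was -0.11. H2-Eb1 fell from 308, 327 and 228 to 126, 151, 163 and 80.9 (-1.17 ± 0.32), H2-Aa by 1.05 and H2-Ab1 by 1.01 on the log2 scale. Cd74, the invariant chain, fell from 658, 759 and 572 to 301, 397, 445 and 265 (-0.93). The 3 rises were Cd40 and Cd80, costimulatory molecules (1.87 and 0.68), and Ctss, a protease that cleaves the invariant chain (0.83). Cd40 was called under all 25 other settings, Cd80 under 23 and Ctss under only 14. These class II falls rest on few libraries: without PBS WT904 or without PBS WT913 none of the 5 was called, without LPS 4 there was 1 and without LPS 1 there were 3, while TPM as deposited gave 8.

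Start-site sequences of genes that rose were read from RefSeq (build GRCm38.p6), in windows of 250 bases before to 50 after the start. The interferon-stimulated response element core, TTTC, any 2 bases and TTTC again (either strand), was in the windows of 26 of the 47 interferon genes that rose and had an entry (55.3%), against 3.99% of all 27025 genes in the table (3.44% of its 32851 windows). The kappa-B form, GGGA, any 1 base and TTTCC (either strand), was in 2 of 10 NF-kB list members that rose (20.0%), against 0.466% of all genes (0.411% of windows). Of the acute-phase genes that rose, 2 of 28 (7.14%) held the response element core and none the kappa-B form. Sites that differ from these patterns were not searched, so a window without a match may still hold a kappa-B site. The patterns share the letters TTTC, so matches can overlap, but none did in the sequences printed. A match describes the sequence alone. The 5 sequences below show genes named above whose windows hold a motif. Each gives the 250 bases before the start, 5′ to 3′ on the gene's strand, with matches in capitals: Saa3 (chr7:46715677-46715926, minus strand), Cxcl10 (chr5:92348890-92349139, minus strand), Gbp5 (chr3:142496684-142496933, plus strand), Ifit1 (chr19:34640639-34640888, plus strand) and Nfkbia (chr12:55492648-55492897, minus strand).
Saa3: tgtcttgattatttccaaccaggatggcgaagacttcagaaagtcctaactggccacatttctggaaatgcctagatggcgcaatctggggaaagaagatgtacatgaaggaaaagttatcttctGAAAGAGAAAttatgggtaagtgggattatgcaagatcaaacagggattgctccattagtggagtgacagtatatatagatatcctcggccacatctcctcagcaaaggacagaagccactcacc
Cxcl10: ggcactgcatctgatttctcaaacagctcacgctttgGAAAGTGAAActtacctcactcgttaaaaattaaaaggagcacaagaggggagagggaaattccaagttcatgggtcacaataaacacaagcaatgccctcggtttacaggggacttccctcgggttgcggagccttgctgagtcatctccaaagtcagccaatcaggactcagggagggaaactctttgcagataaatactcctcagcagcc
Gbp5: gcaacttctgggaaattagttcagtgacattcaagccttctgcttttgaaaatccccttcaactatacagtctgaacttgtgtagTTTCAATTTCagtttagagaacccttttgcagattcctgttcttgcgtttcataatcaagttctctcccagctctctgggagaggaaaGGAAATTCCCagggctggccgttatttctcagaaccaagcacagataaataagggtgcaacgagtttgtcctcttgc
Ifit1: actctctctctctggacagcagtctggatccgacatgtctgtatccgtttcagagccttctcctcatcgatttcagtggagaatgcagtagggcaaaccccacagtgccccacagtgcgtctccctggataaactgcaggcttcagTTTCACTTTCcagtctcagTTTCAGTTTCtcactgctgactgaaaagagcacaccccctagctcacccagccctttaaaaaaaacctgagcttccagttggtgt
Nfkbia: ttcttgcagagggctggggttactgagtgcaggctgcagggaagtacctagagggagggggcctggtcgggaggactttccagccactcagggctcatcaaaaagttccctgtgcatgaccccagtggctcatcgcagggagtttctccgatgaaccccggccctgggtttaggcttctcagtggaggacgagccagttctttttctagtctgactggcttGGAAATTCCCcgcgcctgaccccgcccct
Ifit1 has a pair of response element cores, 85 and 104 bases before the start, and Gbp5 has a core 165 and a kappa-B form 77 bases before it. The core of Cxcl10 lies 213 bases and that of Saa3 125 bases before the start, and the kappa-B form of Nfkbia lies 29 bases before it.

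Homeostatic genes of microglia showed a partial fall. Of 50 tested, 14 were lower, 5 higher and 31 not called, with a median of -0.16. P2ry12, the purine receptor by which resting microglia sense injury, fell from 3777, 3115 and 3259 to 2122, 2424, 1508 and 1862 scaled TPM (-0.79 ± 0.18). Tmem119, a membrane protein that marks microglia, fell from 3198, 3280 and 2723 to 1992, 1914, 1918 and 1918 (-0.66 ± 0.13). Slc2a5, a fructose transporter (-1.26), and Upk1b, a tetraspanin (-1.48), fell most. All 4 genes lay below every PBS library in every LPS library. Cx3cr1, the fractalkine receptor, stood at 3526, 3266 and 3219 and at 2618, 2835, 2528 and 2158 (-0.40, adjusted p = 0.103), without overlap, and was called under 5 of the 25 other settings. Sall1, a transcription factor that maintains microglial identity, stood at 493, 406 and 403 and at 305, 278, 263 and 236 (-0.68, adjusted p = 0.0531, called under 8 other settings), and Csf1r had a difference of 0.03, which lay between -0.47 and 0.08 under the other settings. Itgam, the CD11b integrin chain (250, 218 and 225 to 452, 522, 701 and 453, 1.18), had the largest rise of the list. How many homeostatic genes fell depends on the scaling and on single libraries: 30 on TPM as deposited, 29 after quantile normalisation, 25 with size factors from genes of 50 TPM or more, but 8 without PBS WT904, 9 without PBS WT913 and 9 without LPS 3.

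Genes of disease-associated microglia, a state described in models of neurodegeneration, rose in 22 of 36 cases and fell in 3 (median 0.86). Besides Ch25h, Ccl3 and Ccl4 the rises included Lilrb4a, an inhibitory receptor, from 18.9, 20.1 and 36.4 to 102, 138, 243 and 151 scaled TPM (2.60). Apoe, a lipid carrier, rose from 3440, 2977 and 2040 to 8498, 5144, 4128 and 4575 (0.96 ± 0.29, adjusted p = 0.0247) and lost its call under 9 of the 25 other settings. Trem2, the lipid receptor that this state depends on, was at 377, 342 and 293 and at 468, 407, 376 and 421 (0.31, adjusted p = 0.0682, called with library weights, and -0.02 on TPM as deposited and -0.11 after quantile normalisation). Serpine2, Cadm1 and Ank, listed for the same state, fell by 0.61, 0.56 and 0.53.

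Transcription factors of microglia and macrophages rose in 22 of 45 cases and fell in 3 (median 0.36). Cebpb, a factor of the inflammatory macrophage programme, rose from 20.1, 20.9 and 13.9 to 277, 189, 476 and 450 scaled TPM (4.10 ± 0.29). Batf, of the AP-1 family, rose by 2.52, Nr1h3, the oxysterol receptor LXR-alpha, from 5.86, 5.43 and 7.27 to 37.1, 30.8, 34.4 and 32.5 (2.28), and Nfil3 by 2.08. Maf (-0.60) and Mef2c (90.07, 89.99 and 85.2 to 61.7, 69.8, 59.4 and 51.8, -0.54), factors of the resting programme, and Irf4 (-0.76) fell. Of the 25 other settings, 18 called Maf, 24 called Mef2c and 14 called Irf4. TGF-beta maintains the resting programme, and 7 of the 25 genes of its pathway fell and 2 rose (median -0.23, with 15 lower on TPM as deposited). Itgb8, the integrin chain that releases active TGF-beta, fell from 18.01, 16.7 and 16.1 to 9.18, 8.08, 3.92 and 6.10 (-1.25), Ltbp3, which binds the latent form, by 1.09 and Pmepa1, a feedback target, from 175, 181 and 160 to 104, 101, 82.9 and 104 (-0.81 ± 0.09). Nrros, which presents latent TGF-beta on microglia, rose from 128, 114 and 110 to 163, 169, 165 and 179 (0.52 ± 0.06), and Tgfbr2 by 0.36, which was -0.02 after quantile normalisation.

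Surface and effector genes of phagocytes were mostly higher. Of 21 complement genes, 11 rose and none fell (median 0.85). C3, the central component, rose from 23.4, 27.0 and 90.8 to 201, 211, 428 and 284 scaled TPM (2.76 ± 0.40), C4b by 2.41 and C5ar1, the receptor for C5a, by 2.06. Fc receptors, phagocytic receptors and the NADPH oxidase had 14 of 28 higher and none lower (median 0.54, with 7 lower on TPM as deposited). Fcgr4, an activating receptor for IgG, rose from 32.9, 25.7 and 30.4 to 295, 484, 544 and 512 (3.87 ± 0.22), and Cd300lf, a receptor for lipids on dying cells, by 3.55. Inflammasome and pyroptosis genes had 14 of 22 higher and 1 lower (median 0.49, with 9 higher on TPM as deposited). Casp4, the mouse caspase-11 that senses LPS inside the cell, rose from 11.45, 11.54 and 10.87 to 74.2, 98.6, 123 and 107 (3.03 ± 0.16), and Mefv, which encodes pyrin, from 1.45, 0.573 and 5.57 to 37.1, 45.7, 132 and 78.6 (4.49). Txnip, a thioredoxin-binding protein that also responds to glucose, was the member that fell (1152, 1512 and 1240 to 678, 887, 583 and 847, -0.81).

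Receptors for purines, lipids and metabolites moved both ways, with 8 of 27 higher and 5 lower (median 0.33), the falls numbering 8 on TPM as deposited and 3 without PBS WT904. With Hcar2 rose Gpr84, which binds medium-chain fatty acids, from 40.1, 35.6 and 37.0 to 165, 168, 406 and 219 scaled TPM (2.54), and Ptger4, a receptor for prostaglandin E2 (2.41). With P2ry12 fell Gpr183, the receptor for oxysterols made from the product of Ch25h, from 134, 115 and 129 to 69.1, 62.9, 64.4 and 51.9 (-1.01 ± 0.13). Among lysosomal hydrolases and membrane proteins 25 of 49 rose and 3 fell (median 0.33). The rises were modest, led by the cathepsins Ctsl (317, 314 and 274 to 656, 615, 737 and 607, 1.11), Ctsc (1.05) and Ctsz (0.95). Smpd1, acid sphingomyelinase, Tmem106b and Npc1, a cholesterol exporter, fell by 0.56, 0.34 and 0.31. On TPM as deposited 13 lysosomal genes were higher and 11 lower, and after quantile normalisation 12 and 12.

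Iron handling genes rose in 11 of 18 cases and fell in 1 (median 0.89). Besides Steap4 and Lcn2, Slc39a14, a metal importer, rose from 8.14, 9.02 and 19.1 to 53.8, 72.8, 100 and 74.3 scaled TPM (2.60), and Hmox1, haem oxygenase, from 89.0, 78.5 and 74.1 to 412, 376, 604 and 296 (2.33 ± 0.25). Ncoa4, which delivers ferritin to the lysosome, fell by 0.37. In glycolysis and lactate transport 11 of 25 genes rose and 2 fell (median 0.52). Slc2a6, a hexose transporter, rose from 2.76, 4.12 and 5.03 to 24.1, 26.9, 93.0 and 47.9 (3.12), Pfkfb3, which makes the activator of phosphofructokinase, by 1.99, and Ldha, lactate dehydrogenase, from 130, 114 and 141 to 260, 251, 445 and 298 (1.24). Slc2a5 and Pfkm fell by 1.26 and 0.76. The 11 rises became 4 on TPM as deposited, 5 after quantile normalisation, 7 with size factors from genes of 50 TPM or more, 5 without PBS WT904 and 6 without PBS WT913.

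Synthesis of cholesterol and fatty acids had 3 of 29 genes higher and 5 lower (median -0.19, with 16 lower on TPM as deposited), near the shares of all genes tested. Fads2, a fatty acid desaturase, fell from 95.4, 83.6 and 82.0 to 47.8, 34.4, 23.9 and 44.6 scaled TPM (-1.23), and Mvd, of the mevalonate pathway, rose by 1.45. Lipid efflux and storage had 9 of 26 higher and 3 lower (median 0.28, and -0.04 on TPM as deposited), with Apoc1 (1.86) and Nr1h3 among the rises and Mgll, monoacylglycerol lipase, the largest fall (50.9, 47.9 and 44.1 to 30.0, 22.4, 19.9 and 26.6, -0.93). The Rheb and mTORC1 list had 7 of 40 higher and 9 lower, beside 16.0% and 13.2% of all genes tested. Its median was 0.05, but -0.25 on TPM as deposited and -0.08 after quantile normalisation. With size factors from genes of 50 TPM or more it was -0.10. Rheb, the gene floxed in these mice, stood at 25.5, 28.1 and 32.2 under PBS and at 33.9, 34.9, 38.6 and 30.0 under LPS (0.26, adjusted p = 0.102, and -0.07 on TPM as deposited), and Mtor at 26.7, 27.7 and 25.6 and at 22.7, 22.97, 25.1 and 24.5 (-0.16, adjusted p = 0.0984). Eif4ebp1, a translational repressor that mTORC1 inactivates, rose from 19.1, 17.6 and 14.9 to 37.4, 38.7, 50.8 and 48.5 (1.30 ± 0.20). The falls of the list numbered 17 on TPM as deposited, 14 with size factors from genes of 50 TPM or more and 5 without PBS WT913. Rragd, a GTPase that recruits mTORC1 to the lysosome, and Sesn3 fell by 1.41 and 1.21. Neither Rheb nor Mtor was called, but Mtor lay lower in every LPS library and was called lower under 5 of the 25 other settings, and Rheb was called higher with library weights.

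Ribosomal protein genes rose together by small amounts: 68 of 78 were higher and none lower, with a median of 0.69. Examples are Rpsa, from 271, 298 and 334 to 606, 586, 754 and 549 scaled TPM (1.04), and Rps2 (1.02). The rises numbered 34 on TPM as deposited and 28 after quantile normalisation, and reads of these genes may be shared with their many pseudogenes. In the cell cycle list 20 of 42 rose and 1 fell (median 0.72). Mki67, a marker of dividing cells, stood at 5.76, 8.45 and 23.1 under PBS and at 28.3, 20.9, 49.6 and 33.5 under LPS (1.5 ± 0.37), with overlap between PBS WT914 and LPS 2. Only 10 of the 42 lay above every PBS library in every LPS library, near the 19.7% of all genes tested. The count of rises fell to 6 without PBS WT904, 8 without PBS WT913 and 8 without LPS 3. It was 9 with the 7 WT libraries alone, 8 on TPM as deposited and 12 with size factors from genes of 50 TPM or more. Immediate early genes, which cell isolation also induces, had 13 of 31 higher and none lower (median 0.77), while 18 were not called. The shares of all genes tested were 16.0% and 13.2%. Ier3 (3.29) led the rises, with Socs3, Ccl4 and Ccl3, which are also reported above among other lists. In 18 members every LPS library lay above every PBS library and in 3 below, against 19.7% and 18.7% of all genes tested.

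Genes of the unfolded protein and integrated stress responses had 8 of 32 higher and none lower, beside 16.0% and 13.2% of all genes tested. Their median was 0.17, but -0.13 on TPM as deposited and -0.06 after quantile normalisation. The rises numbered 3 on TPM as deposited, 4 without PBS WT904 and 5 without LPS 2. Xbp1, a factor of the unfolded protein response, rose from 159, 133 and 160 to 293, 281, 265 and 300 scaled TPM (0.91 ± 0.11). Glucocorticoid-responsive genes had 4 of 21 higher and 4 lower, near the shares of all genes tested (16.0% and 13.2%). Their median was -0.02, or 0.03, 0.22 and 0.08 without PBS WT904, PBS WT913 and LPS 3. Only 1 of the 4 falls was called without PBS WT913, and 2 of the rises without PBS WT904, LPS 2 or LPS 4. Cebpd rose by 1.20, and Sgk1 fell from 796, 986 and 912.9 to 427, 505, 404 and 559 (-0.93) and Ddit4, an inhibitor of mTORC1, from 893, 1228 and 640 to 369, 399, 257 and 382 (-1.35). Clock genes also split, with 6 of 19 higher and 7 lower (median 0.43), or 4 lower without PBS WT913 or WT914. Bhlhe41, a repressor in the clock that is also typical of microglia, rose from 51.3, 48.2 and 49.9 to 110, 103, 100 and 92.5 (1.01 ± 0.10), and Arntl, the core activator BMAL1, fell from 9.01, 10.9 and 10.6 to 6.504, 4.082, 4.501 and 3.04 (-1.05). The hour of collection is not in the labels.

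**Figure D4:**
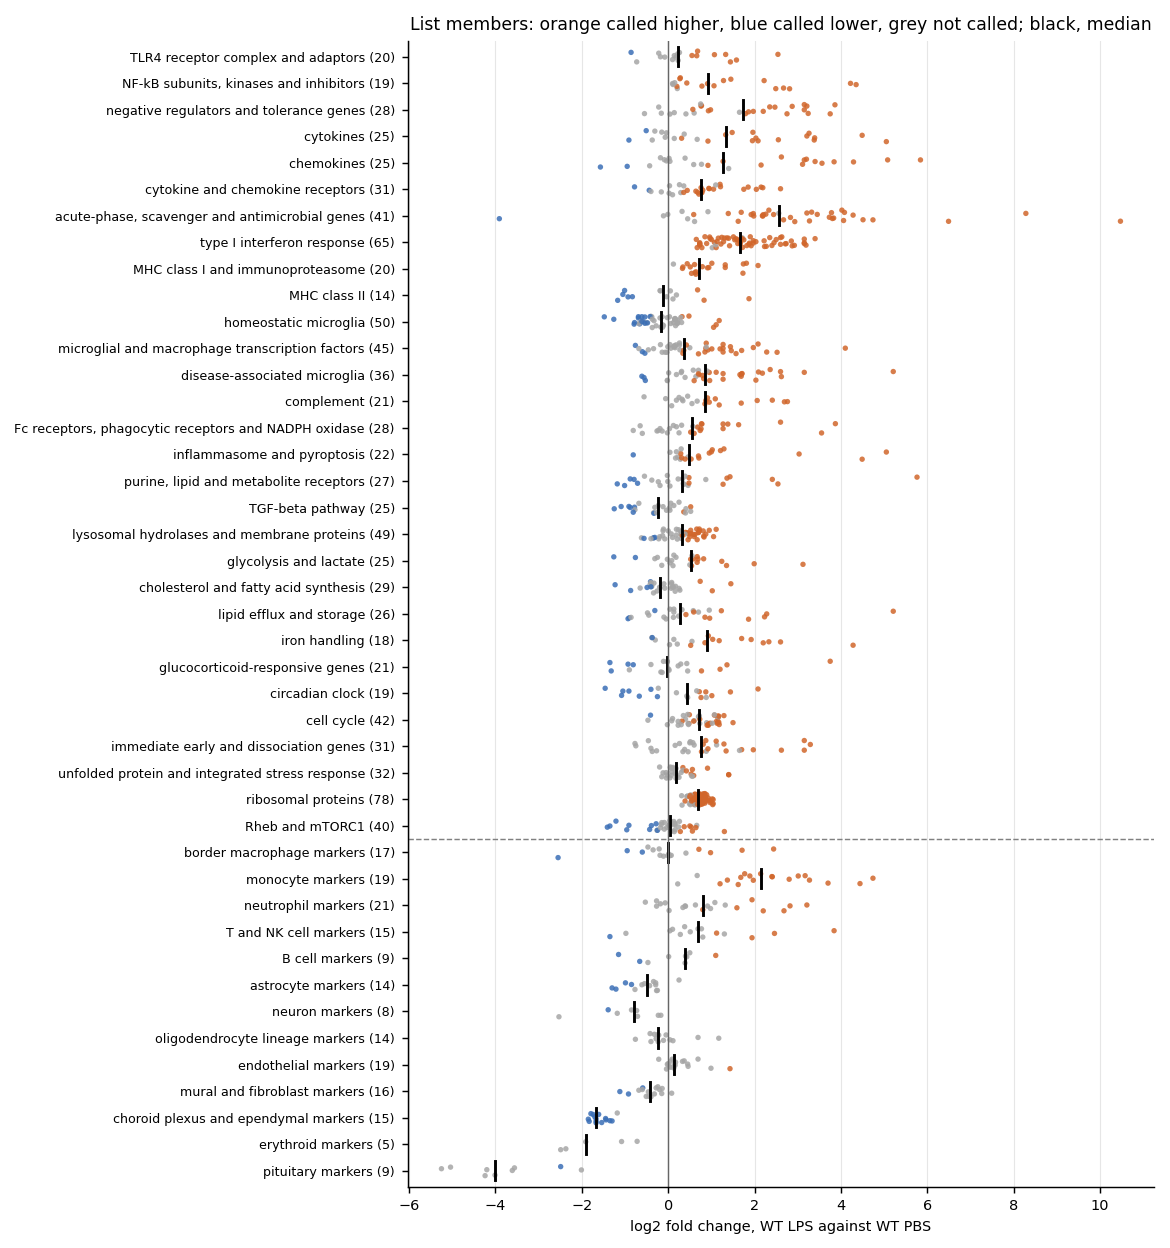
Log2 fold changes of the tested members of 43 gene lists, WT LPS against WT PBS; each point is a gene, orange where it rose, blue where it fell and grey where it was not called, black ticks are medians, numbers in brackets are members tested, and lists below the dashed line mark other cells. Medians run from 2.56 for the acute-phase list to -4.01 for the pituitary list; those of the TLR4, lipid efflux, stress response, mTORC1 and endothelial lists change sign on TPM as deposited.

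Markers of other cells moved with treatment as well. Of 19 monocyte markers 17 rose and none fell (median 2.14), and their summed level was 596 to 1724 scaled TPM under PBS and 3242 to 6146 under LPS. Treml4, F10, Itgal and Hp led them; Hp, haptoglobin, went from 77.2, 102 and 313 to 807, 1153, 1915 and 1660 (3.27). Ccr2, which marks blood monocytes and was chosen here by name after its values were seen, was at 22.6, 18.1 and 28.5 and at 43.2, 60.02, 90.7 and 34.3 (1.20 ± 0.28). None of the 19 was under 1 scaled TPM in all 7 libraries. The part of monocyte RNA in the rises of Saa3, of the cytokines or of the acute-phase genes was not tested.

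Of 21 neutrophil markers 7 rose and none fell (median 0.80), with sums of 5731 to 23880 under PBS and 12020 to 28700 under LPS that overlapped. PBS WT914 held the highest PBS sum, and without it 11 rose. Trem1, an activating receptor of neutrophils and monocytes, rose by 3.21. T and NK cell markers had 4 of 15 tested genes higher and 1, Il7r, lower (-1.35), beside 16.0% and 13.2% of all genes tested. The largest rise was that of Ccl5 (3.84), which is also in the chemokine list. Gzma and Gzmb, granzymes of cytotoxic cells, rose by 2.46 and 1.94. In all 7 libraries, 5 of the 22 listed were under 1 scaled TPM. For border macrophages, which line vessels and meninges, 4 of 17 rose and 3 fell, beside 16.0% and 13.2% of all genes tested. The border macrophage sums overlapped at 1093 to 1906 under PBS and 1310 to 2012 under LPS. Of 9 tested B cell genes 1 rose, and 2, Ighd (-1.15) and Ighm (-0.66), fell, also beside 16.0% and 13.2%. The median of the B cell list was 0.39. Neither fall was called without PBS WT904, without PBS WT914 or without LPS 4, and that of Ighm was not called without LPS 3.

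Choroid plexus and ependymal markers, epithelial cells that carry over from the ventricles, fell in 14 of 15 cases (median -1.67), or in 9 without PBS WT904. Kl, the choroid plexus protein klotho, went from 68.3, 60.1 and 73.3 to 29.6, 29.1, 8.44 and 16.4 scaled TPM (-1.79 ± 0.45). Astrocyte markers had 4 of 14 lower (median -0.49), or 2 without PBS WT904 or WT913, Aqp4, the water channel, among them (74.4, 65.8 and 34.96 to 25.4, 24.8, 16.6 and 28.4, -1.21). Mural and fibroblast markers had 3 of 16 lower, beside 13.2% of all genes tested, or none without PBS WT904 or without PBS WT913. No oligodendrocyte marker (14 tested) and no erythroid marker (5 tested) was called. Of 8 neuronal markers 1, Map2, fell (-1.39), and of 9 pituitary markers 1, Pitx1, beside 13.2% of all genes tested. The pituitary median of -4.01 comes with a summed level of 85280 scaled TPM in PBS WT914 against 179.8 and 232 in the other PBS libraries. The part of these cells in the falls of the WT response was not tested.

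In the KO libraries 2292 genes (12.7%) were higher under LPS than under PBS and 1852 (10.2%) were lower. The KO libraries are separate from those of WT, but the filter, the scaling and the estimate of each gene's spread are shared. Calls in WT and KO are therefore not independent. Of the 2898 genes higher in WT, 1755 were also higher in KO, which is 60.6% of the WT list and 76.6% of the KO list, and 95.3% had a positive difference there. Of the 2394 lower in WT, 880 were also lower in KO (36.8% and 47.5% of the lists), and 92.3% had a negative difference. Across the 18105 genes, which are not independent, the fold changes correlated with Pearson's r of 0.685. The same sex and composition differences separate PBS from LPS in KO. KO library LPS 3 held 19670 TPM of Gh and 7067 TPM of Prl, prolactin, so that pituitary transcripts stand on the PBS side in WT and on the LPS side in KO (list medians -4.01 and 1.53). Their part in these shares and in r was not tested. Saa3 rose by 10.47 in WT and 10.09 in KO, and Retnla changed by -3.91 and -3.88. Cxcl10 rose by 5.08 in WT and by 2.37 in KO, but the difference was not called (adjusted p = 0.379).

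**Figure D5:**
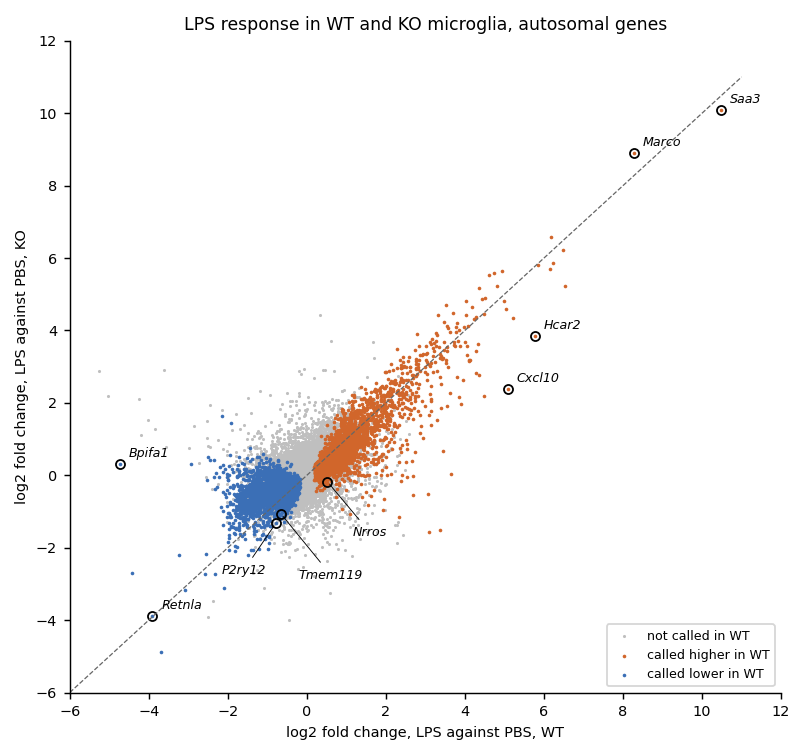
Log2 fold changes, LPS against PBS, in WT (x axis) and KO (y axis) for 18105 autosomal genes, orange where higher in WT, blue where lower in WT and grey where not called; circles mark named genes and the dashed line equal responses. Saa3 stands at 10.47 and 10.09, and Hcar2 and Nrros, the genes called for a different response, lie below the line.

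The difference of the response between genotypes was called for 2 genes of 18105 (0.011%), and 2016 (11.1%) had an unadjusted p under 0.05. Hcar2 rose from a mean of 4.31 to 282 scaled TPM in WT and from 15.1 to 229.9 in KO (interaction -1.91 ± 0.25, adjusted p = 0.0439). Nrros rose in WT as above and stood at means of 210.0 and 185.9 in KO (interaction -0.70 ± 0.09, adjusted p = 0.0439). Without both PBS WT914 and KO library LPS 3 it was called for 3 genes. Other settings called 0 to 16 genes, and leaving out any of PBS WT913, LPS 2, LPS 3 or LPS 4 left none. The homeostatic list had 34 of 50 members lower in KO (median -0.66) against 14 in WT (median -0.16), and no member's difference was called.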

How the data were processed

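The 14 libraries are RNA-seq of bead-purified mouse brain cells. TRIZOL extraction and a universal V8 kit are named in the labels' protocols, which do not state strand. STAR 2.7.10b and featureCounts 2.0.1, after FastQC 0.11.9 and cutadapt 4.4, are named in the submitters' processing notes, as is the human build hg38, although the gene IDs are those of mouse. The authors deposited TPM per gene (reads divided by gene length and scaled to a fixed total per library), so levels are relative within a library. Names and chromosomes came from GENCODE M21 for 41672 of 41739 IDs. With its exon lengths, 98.4% to 98.6% of values were whole reads within 0.02 reads, which gave the depths.

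TPM was divided by median-of-ratios size factors, and log2(value + 1) was fitted with limma 3.58.1 in R 4.3.3 to 4 group means over all 14 libraries, with a trend of variance on intensity and p-values adjusted by Benjamini-Hochberg over 18105 genes. This test was checked on simulated data with 200 genes changed, equally in both directions and with independent noise. That check cannot show how calls behave where composition differs between the groups. Single sums were compared by exact permutation (scipy 1.17.1). No set test was run: lists are described by counts and medians beside all genes tested. The members, the 43 lists and the naming rule were chosen with earlier results of these data known. Named by rule were the 12 largest rises and falls without overlap and with a mean of at least 5 scaled TPM, up to 4 called members per direction of a list, a fixed set of receptor, mediator, microglial and mTOR genes, genes called for the interaction, and genes whose promoters are printed. Model names, small RNAs and pituitary hormones were left out of the largest changes, and some genes that the rule names are not reported here. Genes on X and Y were left out of the fit because sex runs with treatment. Reads of overlapping, antisense or near-identical genes cannot be told apart.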

Additional observations from a re-analysis of the deposited data

Results flagged for a closer look

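A library far from the other 3 LPS libraries was sought in 179 values (161 genes and 18 library measures). By Dixon's criterion 18 of these values stood apart. Chance gives about 1 in 20 only for independent, normally distributed values. Genes of the same library are not independent, so the count is not read against chance. LPS 3 was the library in 13 of these 18. It stood above the others for Saa3 (4718 scaled TPM), Ccl3 (3155), Cxcl10 (893), Acod1 (862), Ifi204 (441), Ccl5 (399.6), Ifit1 (311), Il12b (161), Oasl1 (143) and Cd80 (34.2), and below them for Pmepa1 (82.9) and Tnfsf8 (11.9). Its 0.0978 scaled TPM of Bpifa1 is a single read. Without LPS 3, Saa3, Ccl3, Cxcl10, Acod1, Ifi204, Ccl5, Ifit1, Il12b, Oasl1, Cd80, Pmepa1 and Tnfsf8 were still called in the same direction.

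LPS 1 stood apart for Tmem119 (1992 scaled TPM, against 1914 to 1918 in the others) and for Iglj3 (2.87, a single read). LPS 2 stood apart for Ighd4-1 (11.98, also a single read). LPS 4 stood apart for the summed erythroid markers (727 scaled TPM) and for the share of Gm23935 in the deposited TPM (15.4%).

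The LPS response differed between KO and WT for Hcar2 (interaction -1.91) and Nrros (-0.70), by the interaction test of the fit. Xist, which the fit does not use, stood at 255 TPM in the lowest LPS library, above every PBS library, where it was at 0.147 TPM or less.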

How the results depend on the processing

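Of 152 called genes named in the text, 92 kept their call and direction under all 25 other settings. Another 60 lost the call under at least 1, 58 of them under the test against a fold limit of 0.5 on the log2 scale, which is stricter by construction. That test called 617 genes higher and 178 lower, and 768 at 2-fold or more. A pseudocount of 5 gave 907 at 2-fold or more, against 1963 in the report's fit. TPM as deposited gave 1439 higher and 6157 lower, and size factors from genes of 50 TPM or more 4113 lower. The cause of these shifts was not tested.

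With each library left out in turn, 2141 to 2834 genes were higher, 1492 to 2263 lower and 1524 to 2081 at 2-fold or more; the fewest lower calls came without PBS WT904. Named genes whose call needed PBS WT904 (21 genes, adjusted p 0.0510 to 0.148 without it) included Nfkbia, Mki67, Aqp4, Cadm1, Ank and the class II genes. Those that needed PBS WT913 (16 genes, 0.05003 to 0.135) included Sgk1, Ddit4 and the class II genes. Those that needed PBS WT914 (13 genes, 0.0559 to 0.160) included Pitx1, Ly6h, Cldn9, Cldn3, Ccl17 and Pfkm. Leaving out LPS 1, 2, 3 or 4 lost 7, 6, 9 and 12, Bpifa1 and Cldn9 in each case, and Pitx1, H2-Ab1, Maf and Ctss in 3 each.

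The interaction of genotype and treatment called 2 genes. It called 4 with a pseudocount of 0.1, 1 after quantile normalisation and 1 without the intensity trend. It called 16 with library weights and 0 on TPM as deposited, with size factors from genes of 50 TPM or more, with robust variance moderation, against the fold limit and with voom on the recovered reads. Left-out libraries gave 0 to 5.

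Directions changed for 5 named genes. Csf1r went from 0.03 to -0.31 on TPM as deposited, -0.47 after quantile normalisation, -0.15 with size factors from genes of 50 TPM or more, -0.01 with library weights, -0.00 with a filter at 5 TPM and -0.07 without PBS WT914, alone or with the third KO LPS library, and lay between -0.07 and 0.08 over the left-out libraries. Trem2 went to -0.02 on TPM as deposited and -0.11 after quantile normalisation, Rheb and Ly96 each to -0.07 on TPM as deposited and Tgfbr2 to -0.02 after quantile normalisation. List medians changed sign on TPM as deposited for the TLR4 list (-0.10), lipid efflux (-0.04), stress responses (-0.13), mTORC1 (-0.25) and endothelial markers (-0.18). After quantile normalisation they did so for stress responses (-0.06), mTORC1 (-0.08) and endothelial markers (-0.02), and with size factors from genes of 50 TPM or more for mTORC1 (-0.10) and endothelial markers (-0.03). The glucocorticoid median was 0.01 with voom and -0.14 to 0.22 over the left-out libraries, above 0 without PBS WT904, PBS WT913 or LPS 3. Over the left-out libraries the medians also crossed 0 for border macrophages (-0.37 to 0.15), oligodendrocytes (-0.53 to 0.16) and endothelium (-0.05 to 0.42).

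No paired analysis was possible because the PBS and LPS libraries share no replicate numbers. Keeping X and Y genes moved none of these 4 counts by over 1.5 times. Genes of a few reads under PBS, such as Il12b, have PBS levels that counting error can set.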
